A study of Mus musculus with 6 samples.

Results

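The genes described here are 39 members of 4 growth factor systems that act through receptor tyrosine kinases, chosen by name from the FGF, PDGF, EGF and HGF families and their feedback genes. These genes were chosen with earlier results of these data known. They comprise 12 FGF ligands, 4 FGF receptors, 9 feedback inhibitors and target genes, 4 PDGF ligands, 4 receptors of the EGF receptor family, 4 ligands of that family, and the pair of Hgf and its receptor gene Met. All 39 of 39 symbols were found among 20007 gene identifiers, and 37 had enough reads to be tested. The 2 others, Fgf16 and Fgf20, had at most 5 reads over any group. RNA sequencing had been done in 6 libraries of cultured cells from KM mice, 2 per group. MEFs were fibroblasts from embryos at 13.5 days post coitum by the age label, although the growth protocol also admits an earlier day. CiSCs were MEFs, passaged and then treated with small-molecule compounds that the labels leave unnamed, to obtain Sertoli-like cells. MSCs were Sertoli cells, the nurse cells of the seminiferous epithelium, plated from testes at postnatal day 60. No group is labelled as passaged MEFs without compounds, so passage and compounds cannot be told apart, and MSCs differ from MEFs in tissue and age as well as in cell type.

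Growth factors of these families bind receptors that phosphorylate themselves on tyrosine and pass the signal through adaptors to the RAS-ERK kinase cascade. Active ERK induces its own brakes, among them the Sprouty and Spred proteins and the phosphatase encoded by Dusp6, together with the ETS transcription factor genes Etv4 and Etv5, and the messages of these genes are widely used as readouts of the pathway. In the testis, FGF9 from the fetal gonad sustains Sertoli cell differentiation, Sertoli cells release FGF2 as a factor for spermatogonial stem cells, and EGF and HGF family ligands act between tubule and interstitial cells. Fibroblasts are classical targets of PDGF and producers of FGF7, FGF10 and HGF, which act on neighbouring epithelia.

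Each library held 19294671 to 20418587 expected counts, so 1 read was worth 0.0468 to 0.0543 CPM (counts per 1000000 after scaling of the libraries). Paired values are the CPM of the first and second library of a group. Tests were run with edgeR (quasi-likelihood), and p-values were adjusted by the method of Benjamini and Hochberg over 15272 genes, with a threshold of 0.05. Fold changes are log2 ± SE, n = 2 libraries per group. Whether both libraries of each group stem from separate cultures or animals is not in the labels, so the p-values reflect spread among these libraries alone, which may be technical. The MEF pair differed most, with 1472 genes over 2-fold apart, against 505 for the CiSC pair and 523 for the MSC pair. Markers of other cells moved with the groups. The summed level of 15 macrophage and leukocyte markers was 12331 to 20016 in MEFs, 35.3 to 52.1 in CiSCs and 1363 to 1448 CPM in MSCs, with 0 of the 15 at 0 reads in any group. Leydig cell and steroidogenic markers (10 genes) summed to 2041 to 2050.1 CPM in MSCs against 11.6 to 13.2 CPM in MEFs and 11.4 to 12.4 CPM in CiSCs, and endothelial markers (10 genes) to 301 to 311, 46.0 to 56.2 and 96.7 to 104 CPM. In MSCs, Hsd17b3 was the 1 steroidogenic marker at 0 reads, but Cyp17a1 had only 1 read and Lhcgr only 3 over the group. In MEFs and CiSCs, Hsd17b3, Lhcgr and the endothelial marker Cldn5 were at 0, with Hsd3b1 at 0 in MEFs and Cyp17a1 and Insl3 at 0 in CiSCs. Of 20 Sertoli cell markers, Fshr and Dmrt1 were at 0 in MEFs, Fshr and Cst12 in CiSCs, and none in MSCs. Their summed level was 3811 to 4991 in MEFs, 6195 to 7204 in CiSCs and 10578 to 14072 CPM in MSCs, and of 18 tested 16 were higher in MSCs than in MEFs and 1 was lower, while 5 were higher and 2 lower in CiSCs. Clu alone made up 4734 and 4020.2 CPM of the CiSC sums, against 5.66 and 5.87 CPM in MEFs. Most of the MEF sums came from Vim, at 2897 and 3892 CPM, and Ctsl, at 694 and 859 CPM. In CiSCs Gata4 stood at 0.0954 and 0.0936 CPM. The Sertoli cell markers Fshr and Rhox5 were near the floor in MSCs too, with 8 and 20 reads over the group. Fibroblast markers (12 genes) summed to 31718 to 33911, 32900.0 to 33592 and 43017 to 45444 CPM in MEFs, CiSCs and MSCs, with 4 higher and 4 lower in CiSCs, and 3 higher and 6 lower in MSCs, than in MEFs. Peritubular myoid and smooth muscle markers (8 genes) summed to 3661 to 4004, 1897 to 2106 and 4375 to 4622 CPM. Germ cell markers (9 measured of 10) summed to 4.10 to 4.31, 8.30 to 9.12 and 29.4 to 36.2 CPM in MEFs, CiSCs and MSCs. Zbtb16 alone made up 25.1 and 19.2 CPM of the MSC sums. All 5 tested were higher in MSCs than in MEFs, while 1 was higher and 1 lower in CiSCs. Tnp1 was at 0 reads in every group, and Prm1 and Stra8 were at 0 in MEFs and CiSCs. Among all tested genes, 19.6% were higher and 21.3% lower in CiSCs than in MEFs, and 22.5% and 20.0% in MSCs. In such bulk samples, fewer cells of a type and less RNA per cell cannot be told apart. Exons of 12 of the 39 genes are overlapped by another gene in GENCODE M21, most for Pdgfa (27.6% of exon bases, by 6330403L08Rik) and Spry1 (24.4%, by Gm42922), both on the opposite strand, and reads shared with such genes cannot be separated here.

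Between CiSCs and MEFs, 8 of the 9 listed ERK feedback and target genes rose, Egfr, Fgf1, Fgf21 and Areg rose, and Fgf7, Fgf10, Pdgfb, Pdgfc, Nrg1, Hgf and Met fell. Of the 37 tested genes, 15 rose in CiSCs, 11 fell and 11 missed the threshold, or 70.3% called where 40.9% of all tested genes were called (19.6% higher, 21.3% lower). Their median log2 fold change was 0.65, against -0.00224 over all tested genes. Between MSCs and MEFs, 11 were higher in MSCs and 11 lower, with a median of 0.11 against 0.01; the share called was 59.5%, beside 42.5% of all tested genes (22.5% higher, 20.0% lower). Between CiSCs and MSCs, 11 were higher in CiSCs and 11 lower, with a median of -0.25 against -0.03, and 59.5% were called beside 42.8% of all tested genes (17.7% higher, 25.1% lower). Both comparisons with MEFs use the same MEF libraries and are set side by side only. Because the genes were chosen with earlier results of these data known, these shares describe the list and do not test it. The highest mean lay in CiSCs for 15 of the tested genes, in MSCs for 13 and in MEFs for 9. Without the first MSC library, 7 were higher and 6 lower in MSCs than in MEFs, and without the second 6 were lower. In CiSCs against MSCs, 7 were lower without the second CiSC library and 7 higher without the second MSC library.

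**Figure D1:**
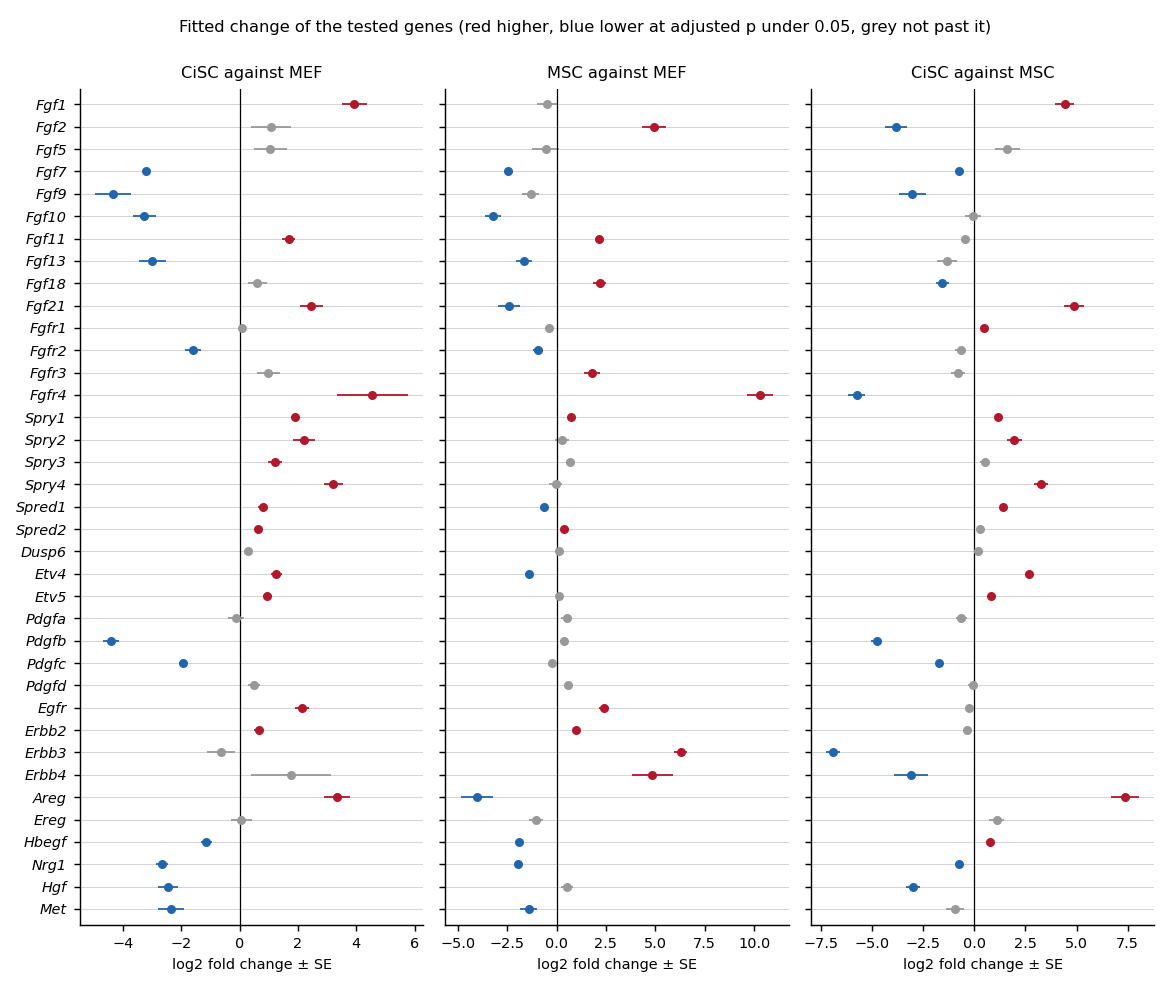
Fitted log2 fold change (x axis, points) with its standard error (bars) for each of the 37 tested genes (y axis) in the 3 comparisons, red where higher and blue where lower at an adjusted p under 0.05, grey where not past it. In CiSCs against MEFs 15 points are red and 11 blue, with 8 of the 9 feedback and target genes (Spry1 to Etv5) red; the points of Fgfr4 against MEFs rest on 0 reads in MEFs and depend on the fit's prior count.

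Among FGF ligands, the paracrine mesenchymal factors Fgf7 and Fgf10 fell in CiSCs, while Fgf1, Fgf21 and Fgf11 rose. Of 10 tested ligands, 3 were higher, 4 were lower and 3 did not pass, beside 19.6% higher and 21.3% lower among all tested genes. Fgf7, which encodes keratinocyte growth factor, stood at 85.7 and 80.8 CPM in MEFs, 9.59 and 8.65 CPM in CiSCs, and 14.9 and 15.4 CPM in MSCs. Both MEF libraries lay far above the other 4, and the change was -3.19 ± 0.14, adjusted p = 1.99e-05 in CiSCs and -2.46 ± 0.13, adjusted p = 4.29e-05 in MSCs. Fgf10, which like Fgf7 signals to epithelial FGFR2, stood at 68.2 and 32.9 CPM in MEFs, 5.10 and 5.43 CPM in CiSCs, and 6.54 and 4.35 CPM in MSCs. The MEF libraries differed from each other here, yet both exceeded all others (log2 fold change -3.26 ± 0.39, adjusted p = 0.00103 in CiSCs, and -3.21 ± 0.39, adjusted p = 0.00104 in MSCs). Without the first MEF library these log2 changes were -2.67 and -2.63. The difference between CiSCs and MSCs in Fgf10 did not pass (-0.05 ± 0.39, adjusted p = 0.937), whereas Fgf7 was lower in CiSCs than in MSCs (-0.73 ± 0.13, adjusted p = 0.00535). That last call was lost without the second CiSC library (adjusted p = 0.0737, edgeR) and without the second MSC library (0.0559).

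Fgf1, the ligand that binds all FGF receptors and has no classical secretion signal, stood at 2.02 and 0.676 CPM in MEFs, 20.5 and 21.0 CPM in CiSCs, and 0.851 and 1.09 CPM in MSCs. CiSC libraries were the only ones above 3 CPM, and the group exceeded MEFs (3.93 ± 0.43, adjusted p = 0.000718) and MSCs (4.41 ± 0.45, adjusted p = 0.000426). Without the first MEF library, the higher of the pair, the log2 change against MEFs was 4.90. MSCs against MEFs did not pass (-0.48 ± 0.50, adjusted p = 0.470, edgeR), but without the second MEF library MSCs were lower (-1.06, adjusted p = 0.0145). Fgf21, the endocrine FGF that needs beta-Klotho as a co-receptor, stood at 0.961 and 2.24 CPM in MEFs, 9.02 and 8.61 CPM in CiSCs, and 0.372 and 0.217 CPM in MSCs, again with the highest level in CiSCs. It rose in CiSCs against MEFs (2.46 ± 0.40, adjusted p = 0.00386), exceeded MSCs (4.87 ± 0.50, adjusted p = 0.000429) and was lower in MSCs than in MEFs (-2.41 ± 0.54, adjusted p = 0.0128). Without the second MEF library these log2 values were 3.19 and -1.68. The lower level in MSCs did not pass without the first (adjusted p = 0.0568, edgeR) or the second MSC library (0.0943). The beta-Klotho gene Klb, looked at after its values were seen, had 1, 2 and 1 reads in MEFs, CiSCs and MSCs, and the alpha-Klotho gene Kl had 0, 2 and 2, so differences in them were not detectable at this depth.

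Fgf2, the basic FGF of spermatogonial stem cell culture, was highest in the MSC libraries. It stood at 0.759 and 0.104 CPM in MEFs, 0.716 and 1.12 CPM in CiSCs, and 14.1 and 12.5 CPM in MSCs, a log2 difference of 4.92 ± 0.60, adjusted p = 0.00103 between MSCs and MEFs and of -3.85 ± 0.54, adjusted p = 0.00169 between CiSCs and MSCs. CiSCs against MEFs did not pass (1.07 ± 0.68, adjusted p = 0.246, edgeR). Without the first MEF library the value in MSCs was 6.89 and CiSCs exceeded MEFs (3.05, adjusted p = 0.00491), and without the second the value in MSCs was 4.12. In the GENCODE M21 annotation of GRCm38, 9.81% of the exon bases of Fgf2 lie under exons of Nudt6 on the opposite strand. The strand of the libraries is not given in the sources used here, and Nudt6 moved in the same direction, at 2.92, 3.66 and 22.7 mean CPM in MEFs, CiSCs and MSCs. The part of shared reads in the Fgf2 result was not tested. Steroidogenic, endothelial and germ cell markers were higher in the same MSC libraries, and their part in the Fgf2 result was not tested either.

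Fgf11 and Fgf13 encode FGF homologous factors, which stay inside the cell and bind sodium channels. Fgf11 stood at 2.78 and 2.75 CPM in MEFs, 9.64 and 8.23 CPM in CiSCs, and 10.8 and 13.9 CPM in MSCs, higher in CiSCs (1.69 ± 0.22, adjusted p = 0.00146) and in MSCs (2.16 ± 0.22, adjusted p = 0.00048) than in MEFs. The ranges of CiSCs and MSCs did not meet, but their difference did not pass (adjusted p = 0.110, edgeR). Fgf13 moved the other way at low levels, from 2.43 and 1.77 CPM in MEFs to 0.239 and 0.281 CPM in CiSCs (-2.98 ± 0.45, adjusted p = 0.00270). In MSCs it was at 0.532 and 0.815 CPM, below MEFs (-1.63 ± 0.40, adjusted p = 0.0186), a call that ended on leaving out the first MEF library (adjusted p = 0.0518), the first MSC library (0.145) or the second (0.0717). Fgf13 was also not called in that comparison by DESeq2 (adjusted p = 0.0533). Only in MEFs, where it was highest, did both libraries reach the level of the low-count filter for Fgf13.

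Other FGF ligands stayed below 5 CPM in every group. Fgf9, the gonadal differentiation factor, had 42 reads in MEFs, 2 in CiSCs and 16 in MSCs, and passed the low-count filter through the MEF libraries only. Its MEF to CiSC ratio was 22.8 (exact binomial 95% interval 5.93 to 194, counting error only). It fell in CiSCs against MEFs (adjusted p = 0.00195, edgeR), did not pass in MSCs against MEFs (0.0519, or 0.0491 with median-ratio scaling) and was lower in CiSCs than in MSCs, with an MSC to CiSC ratio of 9.10 (2.14 to 81.6, adjusted p = 0.0119). The latter did not pass by DESeq2 (adjusted p = 0.0533), without either CiSC library (0.0840 and 0.0835) or without the first MSC library (0.0869). Fgf18 stood at 1.21 and 0.884 CPM in MEFs, 1.91 and 1.31 CPM in CiSCs, and 4.63 and 4.94 CPM in MSCs, highest in MSCs (2.18 ± 0.33, adjusted p = 0.00252 against MEFs, and -1.57 ± 0.31, adjusted p = 0.00738 for CiSCs against MSCs). CiSCs against MEFs did not pass (0.191). Leaving out the second CiSC or the second MSC library ended the latter call (adjusted p = 0.0642 and 0.0603, edgeR). Fgf5 stood at 0.303 and 0.416 CPM in MEFs, 0.763 and 0.749 CPM in CiSCs, and 0.106 and 0.380 CPM in MSCs and passed in none of the 3 comparisons with all libraries (adjusted p = 0.184, 0.535 and 0.0760), although CiSCs exceeded MSCs with only those 2 groups in the fit (0.0440). Fgf16 had 2, 3 and 5 reads in MEFs, CiSCs and MSCs, and Fgf20 had 1, 0 and 0, so no difference was detectable for them. Per kilobase of exon (GENCODE M21), Fgf7 was the highest ligand in MEFs at 26.5 CPM per kb, followed by Fgf10 at 12.3. In CiSCs Fgf21 (9.27) and Fgf1 (4.0) led, and in MSCs Fgf7 (4.82), Fgf11 (4.07) and Fgf18 (4.03) lay close together.

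Fgfr1 was by far the most abundant FGF receptor gene in all 3 groups, and Fgfr2, the receptor for FGF7 and FGF10 in its epithelial splice form, was lower in CiSCs than in MEFs. Fgfr1 stood at 452 and 408 CPM in MEFs, 471 and 446 CPM in CiSCs, and 322 and 341 CPM in MSCs. Neither CiSCs nor MSCs passed against MEFs (adjusted p = 0.584 and 0.0565, edgeR). For MSCs it passed by DESeq2 (0.00955), with median-ratio scaling (0.0447) and without either MEF library (0.0208 and 0.00728). CiSCs were slightly above MSCs (0.47 ± 0.13, adjusted p = 0.0262), a call lost when any CiSC or MSC library was left out (adjusted p from 0.119 to 0.195). Fgfr2 stood at 36.0 and 21.3 CPM in MEFs, 9.49 and 9.50 CPM in CiSCs, and 15.8 and 14.5 CPM in MSCs. It fell in CiSCs (-1.59 ± 0.26, adjusted p = 0.00377) and was lower in MSCs (-0.92 ± 0.25, adjusted p = 0.0276), the latter not past the threshold when any CiSC or MSC library was left out (adjusted p from 0.0523 to 0.155). CiSCs against MSCs did not pass (adjusted p = 0.0806) but did without the first or second MEF library (0.00229 and 0.00170). Counts per gene do not separate the splice forms of this receptor. Exon annotation of Ctbp2 covers 6.14% of the exon bases of Fgfr2, and Ctbp2 was at 71.8, 79.7 and 79.9 mean CPM in MEFs, CiSCs and MSCs.

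Fgfr4, the receptor that pairs with endocrine FGFs in liver, had 0 reads in both MEF libraries, and stood at 0.191 and 0.0936 CPM in CiSCs (6 reads) and 7.28 and 8.58 CPM in MSCs. Its level in MSCs was at least 103-fold higher than in MEFs, taking 3 reads over the MEF group as the floor (adjusted p = 0.000202, edgeR). MSCs also exceeded CiSCs (log2 for CiSCs against MSCs -5.74 ± 0.42, adjusted p = 0.000254). The 6 reads in CiSCs gave at least 1.84-fold against MEFs, with an adjusted p of 0.0322 that rose above the threshold when any of the 6 libraries was left out (0.0566 to 0.121). Fgfr4 passed the low-count filter through the MSC libraries only. Fgfr3 was low throughout, at 0.506 and 0.416 CPM in MEFs, 0.811 and 1.03 CPM in CiSCs, and 1.54 and 1.68 CPM in MSCs, and passed only in MSCs against MEFs (1.79 ± 0.38, adjusted p = 0.0107). That call was lost without the first (adjusted p = 0.0662) or second MSC library (0.0839). Per kilobase of exon, Fgfr1 stood at 82.4, 88.0 and 63.6 CPM per kb in MEFs, CiSCs and MSCs, with Fgfr2 next at 5.60, 1.86 and 2.96. Fgfrl1, a related receptor gene without a tyrosine kinase domain, was at 16.6 and 19.0 CPM in MEFs, 45.7 and 41.5 CPM in CiSCs, and 36.9 and 32.9 CPM in MSCs, higher in CiSCs (1.29 ± 0.15, adjusted p = 0.000772) and MSCs (0.97 ± 0.14, adjusted p = 0.00253) than in MEFs.

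**Figure D2:**
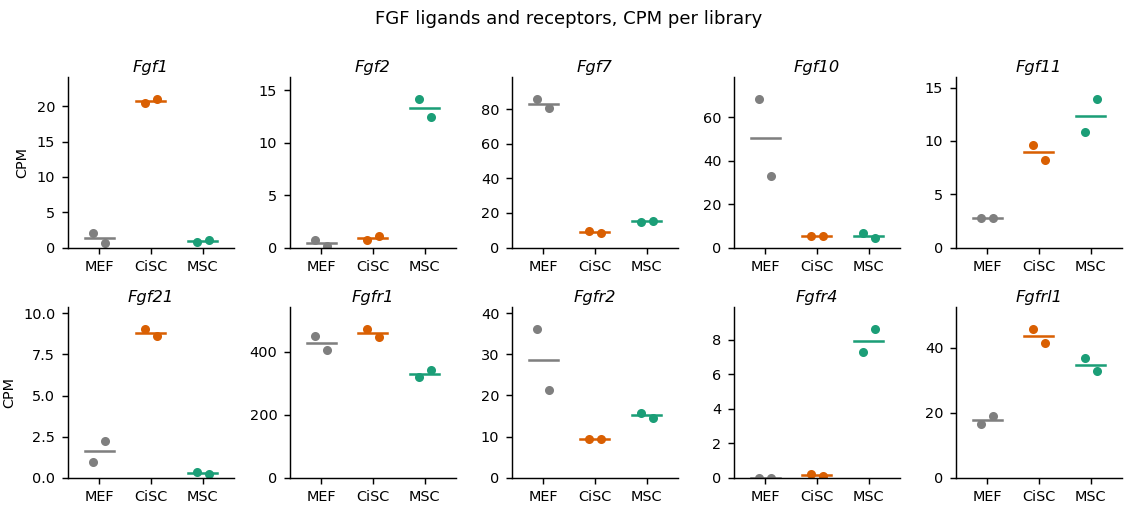
CPM (y axis, linear from 0, own scale in each panel) of FGF ligand and receptor genes by group (x axis), with points for the 2 libraries of a group and a line for their mean. Fgf7 and Fgf10 are highest in both MEF libraries, Fgf1 and Fgf21 in both CiSC libraries, and Fgf2 and Fgfr4 in both MSC libraries, while Fgfr1 lies between 322 and 471 CPM in all 6.

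The listed feedback inhibitors and targets of ERK signalling rose in CiSCs, bar 1. Of 9 tested genes, 8 were higher than in MEFs and 0 lower, beside 19.6% higher and 21.3% lower among all tested genes. Their median log2 fold change was 1.21, and the exception was Dusp6. This list was also chosen with earlier results of these data known, so the count describes it and does not test it. The promoters of 3 of the 8 risers are shown as examples, without a rule that picks these over the others. They are the 250 bases before the RefSeq start in GRCm38.p6, read 5′ to 3′ on the gene's strand, at chr3:37639697-37639946 (plus strand), chr14:105896820-105897069 (minus strand) and chr16:22439571-22439820 (minus strand, the first of 2 listed starts). Capitals mark matches to 4 motifs searched on both strands.
Spry1: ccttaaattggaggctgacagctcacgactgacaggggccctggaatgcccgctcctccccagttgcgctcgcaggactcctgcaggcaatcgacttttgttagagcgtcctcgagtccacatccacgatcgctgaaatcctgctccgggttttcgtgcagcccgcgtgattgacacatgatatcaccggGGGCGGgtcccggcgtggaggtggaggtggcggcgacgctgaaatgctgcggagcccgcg
Spry2: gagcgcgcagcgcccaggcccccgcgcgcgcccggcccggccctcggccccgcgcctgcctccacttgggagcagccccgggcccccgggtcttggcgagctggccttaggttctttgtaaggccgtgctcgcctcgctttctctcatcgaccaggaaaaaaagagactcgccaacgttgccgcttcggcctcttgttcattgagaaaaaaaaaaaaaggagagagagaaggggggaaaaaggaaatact
Etv5: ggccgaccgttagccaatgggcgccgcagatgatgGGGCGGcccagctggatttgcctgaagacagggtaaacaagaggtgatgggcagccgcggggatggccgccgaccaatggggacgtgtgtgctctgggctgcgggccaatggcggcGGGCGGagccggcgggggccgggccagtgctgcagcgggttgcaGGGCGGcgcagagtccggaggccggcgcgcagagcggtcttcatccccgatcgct
The motifs were CCGGAA (the core bound by ETS factors), TGACGTCA (the cAMP response element), TGANTCA (the AP-1 site) and GGGCGG (the GC box), none of which contains another. All capitals in these 3 windows are GGGCGG, with 1 match in Spry1, 0 in Spry2 and 3 in Etv5, and GGGCGG occurs in 32.7% of 32851 such windows. No window of the 3 held CCGGAA, which is in 12% of all windows, TGACGTCA (1.55%) or TGANTCA (6.75%). Of the 39 genes, 27 had at least 1 window, and GGGCGG was found for 16 of them, CCGGAA for 4 (Egfr, Erbb4, Fgf5 and Fgfr4), TGANTCA for 2 (Fgf13 and Met) and TGACGTCA for 1 (Areg). The 16 genes with GGGCGG include the risers Spred1 and Spred2, whose windows are not shown.

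Among the Sprouty genes, whose products block RAS activation below the receptor, Spry4 changed most. It stood at 23.3 and 11.4 CPM in MEFs, 149 and 175 CPM in CiSCs, and 17.5 and 16.0 CPM in MSCs. Both CiSC libraries lay more than 5 times above any other, with a change of 3.22 ± 0.33, adjusted p = 0.000544 against MEFs and 3.27 ± 0.33, adjusted p = 0.000415 against MSCs. MSCs against MEFs did not pass with all libraries (-0.05 ± 0.32, adjusted p = 0.916), yet passed in opposite directions without the first MEF library (0.52, adjusted p = 0.0256) and without the second (-0.47, 0.0321). Spry2 stood at 101 and 43.6 CPM in MEFs, 324 and 348 CPM in CiSCs, and 84.6 and 88.1 CPM in MSCs, so the MEF pair was spread over 2-fold and the CiSC pair was higher than all others (2.22 ± 0.37, adjusted p = 0.00395). Without the first MEF library its rise was 2.92, and MSCs then exceeded MEFs (0.95, adjusted p = 0.00026). CiSCs exceeded MSCs (1.96 ± 0.36, adjusted p = 0.00559), except that without the first or second MSC library this missed the threshold (0.0563 and 0.0521). Spry1 stood at 95.3 and 91.0 CPM in MEFs, 369 and 329 CPM in CiSCs, and 163 and 149.6 CPM in MSCs. The 3 groups did not overlap and were ordered MEFs, MSCs, CiSCs (1.91 ± 0.13, adjusted p = 0.000105 for CiSCs and 0.75 ± 0.13, adjusted p = 0.00460 for MSCs against MEFs, 1.16 ± 0.13, adjusted p = 0.000624 for CiSCs against MSCs). The difference of MSCs from MEFs was lost without the first MSC library (adjusted p = 0.0584). Spry3 was the least abundant, at 2.33 and 2.50 CPM in MEFs, 5.06 and 6.13 CPM in CiSCs, and 4.15 and 3.69 CPM in MSCs. It rose in CiSCs (1.21 ± 0.23, adjusted p = 0.00761), though not past the threshold without the second CiSC library (0.0748). In MSCs against MEFs it did not pass (0.0545, or 0.0448 among genes of at least 5 CPM in 2 libraries), nor in CiSCs against MSCs (0.118, or 0.0480 with only those 2 groups in the fit).

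Spred1 and Spred2 encode membrane proteins that restrain RAF activation. Spred1 stood at 182 and 149 CPM in MEFs, 283 and 289.6 CPM in CiSCs, and 118 and 97.4 CPM in MSCs, highest in CiSCs and lowest in MSCs, without overlap. The change was 0.79 ± 0.16, adjusted p = 0.00878 in CiSCs and -0.62 ± 0.16, adjusted p = 0.0222 in MSCs against MEFs, and 1.41 ± 0.16, adjusted p = 0.000693 for CiSCs against MSCs. Spred2 stood at 64.5 and 72.4 CPM in MEFs, 111 and 103 CPM in CiSCs, and 90.1 and 88.7 CPM in MSCs, with smaller steps (0.65 ± 0.13, adjusted p = 0.00800 in CiSCs, 0.39 ± 0.13, adjusted p = 0.0497 in MSCs). Against MEFs, the rises in CiSCs did not pass without the first or second CiSC library (adjusted p = 0.0642 and 0.0761 for Spred1, 0.0945 and 0.0613 for Spred2, edgeR). The MSC values of both genes missed it when any CiSC or MSC library was left out (from 0.0528 to 0.178 for Spred1, from 0.146 to 0.223 for Spred2), and Spred2 also with median-ratio scaling (0.0615), with no filter (0.0680) and with counts not rounded (0.0502). For CiSCs against MSCs, Spred2 passed without the first or second MEF library (0.0229 and 0.0303) and not with all 6 (0.144).

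Etv4 and Etv5, the ETS factor genes induced by FGF signalling, both rose in CiSCs. Etv4 stood at 50.4 and 36.2 CPM in MEFs, 106 and 102 CPM in CiSCs, and 15.8 and 16.8 CPM in MSCs. MSC libraries were the lowest and CiSC libraries the highest, with 1.26 ± 0.18, adjusted p = 0.00229 in CiSCs and -1.41 ± 0.19, adjusted p = 0.00150 in MSCs against MEFs, and 2.67 ± 0.19, adjusted p = 0.000101 between CiSCs and MSCs. Etv5 stood at 55.0 and 59.7 CPM in MEFs, 109 and 112 CPM in CiSCs, and 68.9 and 54.6 CPM in MSCs, higher in CiSCs than in MEFs (0.95 ± 0.15, adjusted p = 0.00359) and MSCs (0.84 ± 0.15, adjusted p = 0.00512), with MEFs and MSCs overlapping (adjusted p = 0.602). The difference of CiSCs from MSCs was lost without the second MSC library (adjusted p = 0.0567, edgeR). Dusp6, the phosphatase of cytoplasmic ERK, stood at 66.9 and 68.2 CPM in MEFs, 80.7 and 85.2 CPM in CiSCs, and 76.4 and 71.3 CPM in MSCs. CiSCs lay above MEFs in both libraries by a small step that did not pass (0.30 ± 0.12, adjusted p = 0.0966), and the other comparisons did not pass either (adjusted p = 0.426 for MSCs against MEFs and 0.314 for CiSCs against MSCs). Over the 9 genes, 6 were higher in CiSCs than in MSCs and 0 lower, beside 17.7% and 25.1% of all tested genes. MSCs against MEFs gave 2 higher and 2 lower, near the 22.5% and 20.0% of all tested genes. Leukocyte markers fell in the same CiSC libraries (sums of 12331 to 20016 CPM in the MEF and 35.3 to 52.1 CPM in the CiSC libraries). The part of this change in the rises of the feedback and target genes was not tested.

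**Figure D3:**
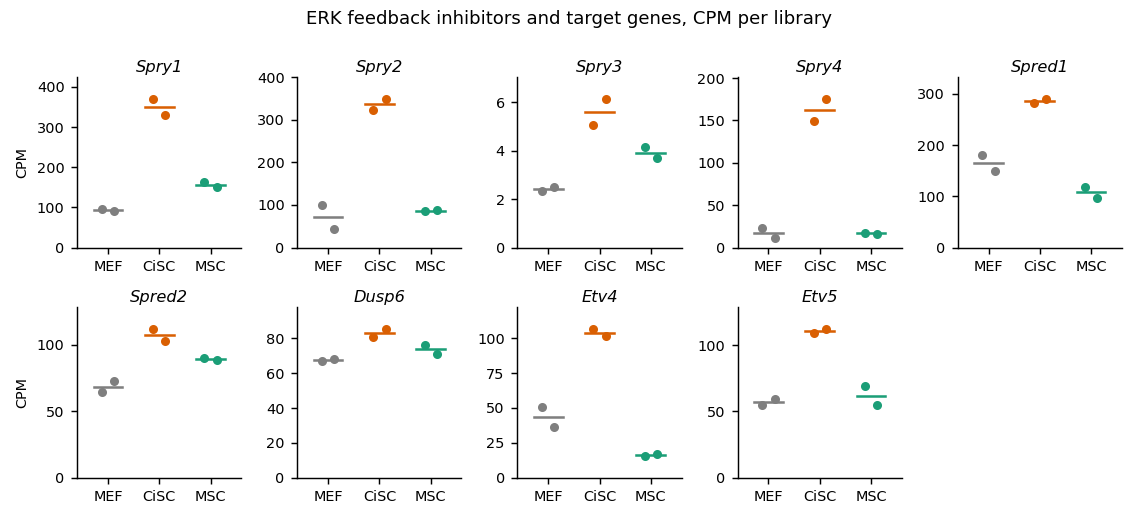
CPM (y axis, linear from 0, own scale in each panel) of ERK feedback inhibitors and target genes by group (x axis), with points for the 2 libraries and a line for their mean. Both CiSC libraries are the highest in all 9 panels, with the widest gap, relative to the next library, for Spry4 (149 and 175 CPM) and the narrowest for Dusp6 (80.7 and 85.2 CPM).

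In the EGF receptor family, Egfr and Erbb2 were higher in CiSCs and in MSCs than in MEFs, and Erbb3 and Erbb4 were higher in MSCs. Egfr stood at 102 and 62.7 CPM in MEFs, 361 and 370.1 CPM in CiSCs, and 441 and 426 CPM in MSCs. Both other groups lay far above both MEF libraries (2.15 ± 0.23, adjusted p = 0.000677 in CiSCs, 2.40 ± 0.24, adjusted p = 0.000415 in MSCs), and CiSCs did not pass against MSCs (-0.25 ± 0.22, adjusted p = 0.422), although without the first or second MEF library they did (adjusted p = 0.0305 and 0.0270). Erbb2, the ligandless partner receptor, stood at 24.2 and 21.7 CPM in MEFs, 35.5 and 36.8 CPM in CiSCs, and 40.9 and 50.9 CPM in MSCs. It was higher in CiSCs (0.66 ± 0.16, adjusted p = 0.0167) and MSCs (1.00 ± 0.16, adjusted p = 0.00305). For CiSCs this was lost without the first (adjusted p = 0.0936) or second CiSC library (0.130). CiSCs against MSCs passed without the first or second MEF library (0.0450 and 0.0370) and not with all 6 (0.121). Erbb3, a neuregulin receptor with little kinase activity of its own, stood at 0.405 and 0.260 CPM in MEFs, 0.286 and 0.140 CPM in CiSCs, and 25.4 and 27.1 CPM in MSCs. Its step in MSCs was 6.27 ± 0.31, adjusted p = 3.02e-05 against MEFs. CiSCs were lower than MSCs by a similar amount (-6.90 ± 0.33, adjusted p = 2.08e-05), while CiSCs against MEFs did not pass (-0.63 ± 0.47, adjusted p = 0.395). Erbb3 passed the low-count filter through the MSC libraries only, the group where it was high. Erbb4 was sparse, with 2 reads in MEFs, 8 in CiSCs and 62 in MSCs, of which 47 were in the first MSC library and 15 in the second, and it passed the low-count filter through the MSC libraries. The MSC to MEF ratio was 32.5 (exact binomial 95% interval 8.62 to 274, which covers counting error of pooled reads only and not the spread between these libraries). The adjusted p was 0.0115 (edgeR). Without the first MSC library the adjusted p was 0.0806 against MEFs and 0.206 for CiSCs against MSCs, with log2 values of 3.84 and -2.08. Without the second MSC library those values were 5.45 and -3.69. CiSCs against MEFs did not pass (0.339). They were below MSCs with all 6 libraries (-3.10 ± 0.85, adjusted p = 0.0263), at -2.30 (adjusted p = 0.135) and -4.94 (0.0382) without the first or second CiSC library. Steroidogenic, endothelial and germ cell markers were higher in the MSC libraries too, and their part in these differences was not tested.

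Among EGF family ligands, Areg rose in CiSCs, Hbegf and Nrg1 fell, and Ereg did not pass. Areg encodes amphiregulin, a ligand of EGFR that is released from the cell surface by proteolysis. Its promoter is shown because it was the 1 gene of the 27 with a window whose 250 bases held the cAMP response element. That element is in 1.55% of all windows and in 1 of the 34 windows of the listed genes, that of Areg. Its part in the Areg result was not tested. The window is chr5:91139349-91139598 in GRCm38.p6 (plus strand), and the capitals mark TGACGTCA starting 61 bases and GGGCGG starting 52 bases before the RefSeq start.
Areg: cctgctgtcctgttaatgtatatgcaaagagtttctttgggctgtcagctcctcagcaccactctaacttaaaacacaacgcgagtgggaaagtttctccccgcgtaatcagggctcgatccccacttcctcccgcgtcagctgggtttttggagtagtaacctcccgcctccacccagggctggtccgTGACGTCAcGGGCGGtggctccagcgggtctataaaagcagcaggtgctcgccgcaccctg
Areg stood at 1.16 and 0.780 CPM in MEFs, 12.2 and 7.72 CPM in CiSCs, and 0.106 and 0 CPM in MSCs. CiSC libraries were the highest, and MSCs held 2 reads in all. The rise over MEFs was 3.34 ± 0.45, adjusted p = 0.00165. Against MSCs the counting ratio was 185 (exact binomial 95% interval 50.8 to 1529, counting error only, adjusted p = 0.000249, edgeR), and MEFs exceeded MSCs by a ratio of 18.1 (4.68 to 155, adjusted p = 0.00852). Without the first MSC library, the 1 that held these reads, the fitted log2 values were 10.63 for CiSCs against MSCs and -7.29 for MSCs against MEFs. MSCs then had 0 reads, so 10.63 and -7.29 depend on the fit's prior count. Without the second MSC library the values were 6.47 and -3.12.

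Ereg, the epiregulin gene next in function to Areg, stood at 59.0 and 25.3 CPM in MEFs, 45.1 and 42.4 CPM in CiSCs, and 20.6 and 20.2 CPM in MSCs. The 2 MEF libraries lay on either side of the CiSC pair, and no comparison passed (adjusted p = 0.918 for CiSCs and 0.0588 for MSCs against MEFs, 0.0501 for CiSCs against MSCs). Which MEF library was kept set the sign in CiSCs, at 0.77 (adjusted p = 0.00102) without the first and -0.43 (0.00992) without the second. In MSCs the values were -0.34 (0.0364) and -1.54 (1.54e-05), and DESeq2 gave an adjusted p of 0.0126. CiSCs exceeded MSCs without the first or second MEF library (3.99e-05 and 2.46e-05), and also by DESeq2 (0.00817), with median-ratio scaling (0.0449) and with counts not rounded (0.0497). Hbegf, the heparin-binding EGF-like factor, stood at 32.6 and 24.5 CPM in MEFs, 12.6 and 13.3 CPM in CiSCs, and 7.50 and 7.55 CPM in MSCs, falling in CiSCs (-1.14 ± 0.18, adjusted p = 0.00343) and lower still in MSCs (-1.92 ± 0.19, adjusted p = 0.000409 against MEFs). Nrg1, the neuregulin that binds ERBB3 and ERBB4, stood at 53.7 and 40.0 CPM in MEFs, 7.87 and 6.92 CPM in CiSCs, and 12.3 and 12.2 CPM in MSCs, with both MEF libraries highest (-2.66 ± 0.19, adjusted p = 0.000124 in CiSCs, -1.94 ± 0.19, adjusted p = 0.000379 in MSCs). Between CiSCs and MSCs, Hbegf was higher (0.78 ± 0.19, adjusted p = 0.0158) and Nrg1 lower (-0.72 ± 0.19, adjusted p = 0.0223) in CiSCs, but neither call held when any CiSC or MSC library was left out (adjusted p from 0.0695 to 0.0989 and from 0.0855 to 0.147). Leukocyte markers fell with Hbegf and Nrg1 in CiSCs (sums of 12331 to 20016 CPM in the MEF and 35.3 to 52.1 CPM in the CiSC libraries), and their part in these decreases was not tested.

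The PDGF ligand genes split, with Pdgfb and Pdgfc lower in CiSCs and Pdgfa and Pdgfd not past the threshold in any comparison. Pdgfb, whose product acts on both PDGF receptors, stood at 31.3 and 31.9 CPM in MEFs, 1.19 and 1.78 CPM in CiSCs, and 34.2 and 47.6 CPM in MSCs. CiSCs held a level over 10 times below every other library (-4.40 ± 0.27, adjusted p = 5.75e-05 against MEFs, -4.78 ± 0.27, adjusted p = 3.88e-05 against MSCs), and MSCs against MEFs did not pass (0.37 ± 0.21, adjusted p = 0.197, edgeR). Leukocyte markers summed to 12331 to 20016 in MEFs, 35.3 to 52.1 in CiSCs and 1363 to 1448 CPM in MSCs, and of 9 tested endothelial markers 4 were lower and 3 higher in CiSCs than in MEFs. Of 8 myoid and smooth muscle markers, 5 were lower and 2 higher in CiSCs than in MEFs, and 7 were lower than in MSCs. Among all tested genes, 21.3% were lower and 19.6% higher in CiSCs than in MEFs, and 25.1% lower than in MSCs. The part of leukocytes, endothelial cells and muscle cells in the Pdgfb and Pdgfc results was not tested. Pdgfc, a PDGFRA ligand that is activated by proteolysis, stood at 42.2 and 36.3 CPM in MEFs, 9.92 and 10.7 CPM in CiSCs, and 35.5 and 32.3 CPM in MSCs. Again the CiSC pair lay below the other 4 (-1.93 ± 0.15, adjusted p = 0.000155 against MEFs, -1.72 ± 0.15, adjusted p = 0.000198 against MSCs), and MSCs against MEFs did not pass (adjusted p = 0.264). Pdgfa stood at 18.5 and 32.4 CPM in MEFs, 24.1 and 22.6 CPM in CiSCs, and 32.5 and 39.8 CPM in MSCs. The MEF pair spanned the CiSC pair, so the sign in CiSCs depended on the library kept, at -0.50 without the first MEF library (adjusted p = 0.0207) and 0.34 without the second (0.107). Without the second MEF library Pdgfa was higher in MSCs than in MEFs (0.97, 0.00147), and without either 1 it was lower in CiSCs than in MSCs (0.00337 and 0.00266). Pdgfd, a ligand of PDGFRB, stood at 62.0 and 41.0 CPM in MEFs, 77.2 and 68.2 CPM in CiSCs, and 78.3 and 76.1 CPM in MSCs, and was higher than in MEFs only without the first MEF library (0.80 in CiSCs, adjusted p = 0.000786, and 0.88 in MSCs, 0.000494) among the left-out libraries. DESeq2 called it in MSCs (0.0379). Of the receptor genes, Pdgfra stood at 529 ± 146 in MEFs, 473 ± 37.3 in CiSCs and 547 ± 47.6 CPM in MSCs, with no comparison past the threshold, except that CiSCs were lower than MEFs without the second MEF library (adjusted p = 0.0230). Pdgfrb stood at 374 ± 68.3 in MEFs, 320.3 ± 16.2 in CiSCs and 155 ± 5.05 CPM in MSCs, lower in MSCs than in MEFs (-1.27 ± 0.16, adjusted p = 0.00126), and lower in CiSCs only without the second MEF library among the left-out libraries (0.0131). Pdgfrl, a related gene without a kinase domain, rose in CiSCs (51.7 ± 2.23 in MEFs, 110.0 ± 1.76 in CiSCs and 53.5 ± 0.402 CPM in MSCs, adjusted p = 0.000714 against MEFs).

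Hgf and Met both fell in CiSCs. Hgf, the ligand made by mesenchyme, stood at 7.28 and 5.20 CPM in MEFs, 0.811 and 1.45 CPM in CiSCs, and 8.03 and 9.94 CPM in MSCs. CiSCs were below MEFs (-2.46 ± 0.35, adjusted p = 0.00210) and MSCs (-2.98 ± 0.35, adjusted p = 0.000753), and MSCs against MEFs did not pass (0.52 ± 0.30, adjusted p = 0.208, edgeR). Met, its receptor gene, stood at 32.0 and 12.2 CPM in MEFs, 3.82 and 4.87 CPM in CiSCs, and 7.76 and 8.85 CPM in MSCs, with the MEF libraries far apart but both above the rest. The log2 change was -2.35 ± 0.45, adjusted p = 0.00762 in CiSCs and -1.41 ± 0.44, adjusted p = 0.0402 in MSCs. Without the first MEF library these log2 values were -1.52 and -0.59. In CiSCs Met did not pass without the first CiSC library (adjusted p = 0.0603), and in MSCs it did not pass when any CiSC or MSC library was left out (0.0637 to 0.199) or with no filter (0.0505). CiSCs against MSCs did not pass in Met with all 6 libraries (0.147), but did without the first or second MEF library (0.00372 and 0.00239) and with only those 2 groups in the fit (0.00392). Leukocyte markers fell in the same CiSC libraries. There 15 of 15 were lower than in MEFs (21.3% of all tested genes) and 15 of 15 lower than in MSCs (25.1%). Their part in the Hgf and Met decreases was not tested.

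**Figure D4:**
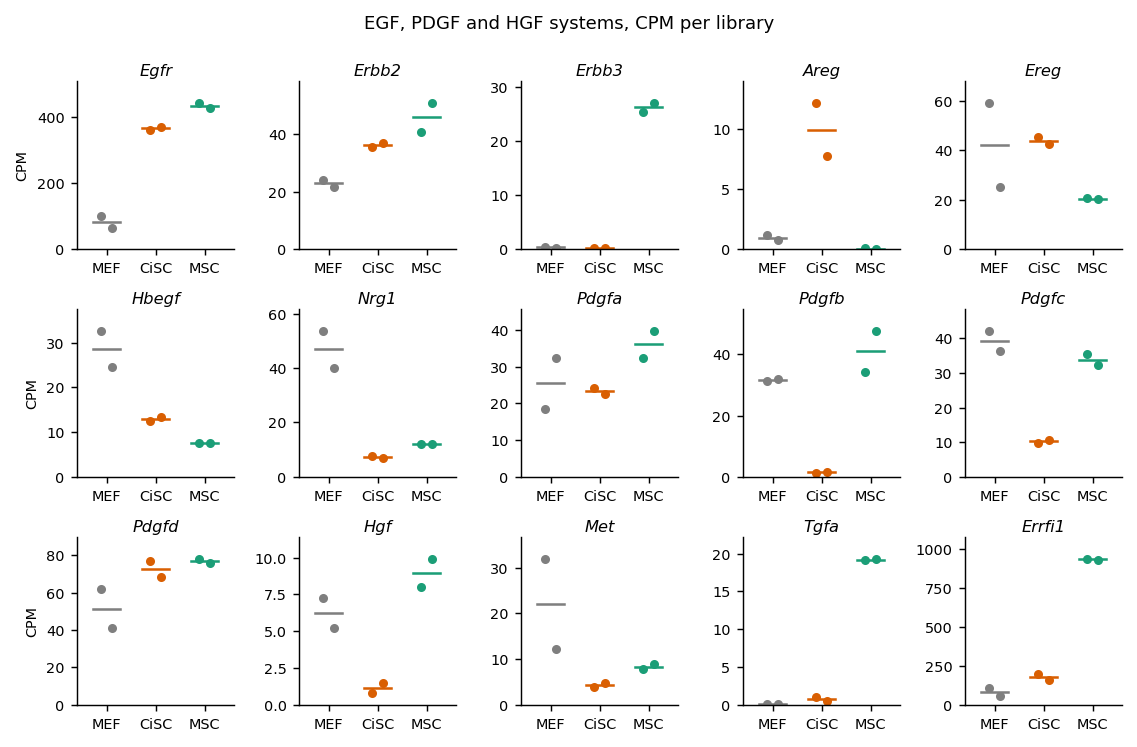
CPM (y axis, linear from 0, own scale in each panel) of EGF, PDGF and HGF system genes by group (x axis), with points for the 2 libraries and a line for their mean. Egfr is at 361 to 441 CPM in the CiSC and MSC libraries and at most 102 CPM in MEFs, Areg is highest in CiSCs, and Pdgfb, Pdgfc and Hgf are lowest in CiSCs.

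Other genes of these pathways moved in both directions. Of 15 further feedback and target genes, all tested, 8 were higher and 2 lower in CiSCs than in MEFs, and 5 and 5 in MSCs. The 2 that fell in CiSCs were Ier3, an immediate early gene of ERK signalling (30.8 ± 6.07 in MEFs, 14.2 ± 0.497 in CiSCs and 120.1 ± 7.34 CPM in MSCs, adjusted p = 0.00308), and Fosl1, which encodes the AP-1 subunit FRA1 (29.6 ± 5.08 in MEFs, 6.41 ± 1.99 in CiSCs and 12.9 ± 0.843 CPM in MSCs, 0.000857); Fosl1 was named after its values were seen. Ccnd1, the cyclin gene of G1 entry, stood at 466 ± 133 in MEFs, 822 ± 19.0 in CiSCs and 46.0 ± 4.47 CPM in MSCs, and rose in CiSCs (0.82 ± 0.21, adjusted p = 0.0222) while being lower in MSCs (-3.34 ± 0.23, adjusted p = 0.000103). Etv1, the third gene of the Etv4 and Etv5 subfamily, showed the same order at 30.5 ± 5.79 in MEFs, 54.5 ± 8.53 in CiSCs and 6.22 ± 1.43 CPM in MSCs (adjusted p = 0.0229 in CiSCs and 0.00051 in MSCs). Errfi1, an inhibitor of EGFR induced by its signalling, was highest in MSCs (82.7 ± 38.3 in MEFs, 177 ± 25.9 in CiSCs and 937 ± 5.31 CPM in MSCs), with an adjusted p of 0.000374 against MEFs, and rose in CiSCs (0.0305). The CiSC calls of Ccnd1 and Errfi1 were lost when any CiSC or MSC library was left out (adjusted p from 0.0579 to 0.115 and from 0.0713 to 0.154), and that of Etv1 without the first (0.0604) or second CiSC library (0.175). Of 18 adaptor and RAS-ERK cascade genes, 5 were higher and 5 lower in CiSCs than in MEFs, and 5 and 3 in MSCs. The adaptor gene Gab1 stood at 15.9 ± 5.46 in MEFs, 111 ± 8.86 in CiSCs and 48.4 ± 2.19 CPM in MSCs and rose in CiSCs (2.80 ± 0.25, adjusted p = 0.000276). All these list counts are to be read beside the 19.6% higher and 21.3% lower among all tested genes in CiSCs against MEFs, and 22.5% and 20.0% in MSCs against MEFs.

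Heparan sulphate chains on cell surfaces present FGFs and HGF to their receptors. Of 16 genes for their carriers and enzymes, 5 were higher and 3 lower in CiSCs than in MEFs, and 6 and 3 in MSCs, beside 19.6% and 21.3% of all tested genes in CiSCs and 22.5% and 20.0% in MSCs, which also stand behind the smaller lists that follow. Sdc4, a syndecan, was highest in MSCs (153 ± 15.0 in MEFs, 106 ± 8.69 in CiSCs and 1164 ± 16.1 CPM in MSCs, adjusted p = 3.37e-05 against MEFs), and the glypican gene Gpc3 in CiSCs (42.2 ± 6.07 in MEFs, 233 ± 19.6 in CiSCs and 28.1 ± 4.59 CPM in MSCs, adjusted p = 0.000132 against MEFs). Of 6 tested FGF co-receptor and binding protein genes, 2 were higher and 0 lower in CiSCs than in MEFs, and 2 and 2 in MSCs. Flrt3, a membrane protein that binds FGFR1, was lowest in MSCs (42.9 ± 8.16 in MEFs, 47.6 ± 2.43 in CiSCs and 0.537 ± 0.00818 CPM in MSCs, adjusted p = 1.45e-05 against MEFs), and Flrt1 was lowest in MEFs (0.769 ± 0.0577 in MEFs, 10.8 ± 1.25 in CiSCs and 26.8 ± 7.32 CPM in MSCs, adjusted p = 0.000161 for CiSCs). Of 5 further EGF family ligands tested, 2 were higher and 0 lower in CiSCs than in MEFs, and 4 and 0 in MSCs, and Tgfa, the EGFR ligand TGF-alpha, was highest in MSCs (0.129 ± 0.0387 in MEFs, 0.758 ± 0.345 in CiSCs and 19.2 ± 0.179 CPM in MSCs, adjusted p = 4.82e-05 against MEFs). Of 7 genes of HGF activation and the related MST1 system, 0 were higher and 2 lower in CiSCs than in MEFs, and 3 and 3 in MSCs. Spint2, an inhibitor of the protease that activates HGF, stood at 6.46 ± 0.125 in MEFs, 1.09 ± 0.0150 in CiSCs and 23.4 ± 4.42 CPM in MSCs, falling in CiSCs (adjusted p = 0.000295) and higher in MSCs (0.000562). Mst1r, the receptor most like MET, stood at 0.465 ± 0.372 in MEFs, 0.519 ± 0.126 in CiSCs and 26.2 ± 0.323 CPM in MSCs and was higher in MSCs than in MEFs (5.80 ± 0.43, adjusted p = 0.000136), with log2 values of 5.13 and 6.97 without the first or second MEF library. Only in MSCs, where Mst1r was highest, did both libraries reach the level of the low-count filter for it. Of 3 further FGF ligands tested, 0 were higher and 2 lower in CiSCs than in MEFs, and 0 and 2 in MSCs, with Fgf14, another homologous factor, at 83, 3 and 19 reads. Fgf12 had 62, 1 and 0 reads in MEFs, CiSCs and MSCs. Only in MEFs, where they were highest, did both libraries reach the level of the low-count filter for Fgf12 and Fgf14. Lower calls elsewhere were thus favoured by the filter and are not independent of it. Fgf4 and Fgf6 of the list of further FGF ligands were not analysed here. Over all 73 tested genes of these lists, 50.7% were called in CiSCs against MEFs (40.9% of all tested genes), 60.3% in MSCs against MEFs (42.5%) and 53.4% in CiSCs against MSCs (42.8%). These lists too were chosen with earlier results of these data known, so the shares do not test them.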

How the data were processed

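RNA sequencing on the BGISEQ-500 platform was measured in 6 mouse libraries. For each library the authors deposited expected counts by gene, estimated read numbers of which many are fractional. Per the submitters' processing notes, HISAT and the mouse build mm9 were used. The counting program, annotation, strand and filters are not given in the sources used here. Identifiers were matched by Entrez number to RefSeq symbols of GRCm38 (18891 of 20007 matched). That build differs from the one of the alignment, so coordinates are given for RefSeq promoter windows only.

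Counts were rounded and fitted in R 4.3.3 with edgeR 4.0.16 (filterByExpr, trimmed mean of M values, 1 mean per group, all 6 libraries, 3 residual degrees of freedom, quasi-likelihood F tests, threshold 0.05). SE is the log2 fold change divided by the root of F. A fold against a group with 0 reads was taken against 3 reads over the group. Exon lengths and exon overlaps came from GENCODE M21 (GRCm38). The labels do not say whether libraries of the same replicate number belong together, so the main fit did not pair them. On simulated data, 200 of 15272 genes, drawn from those with more reads, were changed in CiSCs only. The procedure recovered 93.0% of 4-fold and 29.0% of 2-fold steps placed between CiSCs and MEFs, and 10 of its 132 calls were false. In the real data 40.9% of tested genes were called in that comparison, so these rates do not carry over to the tests reported here.

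The genes and lists were chosen with earlier results of these data known. Values of every library are given for the 31 genes whose mean reaches 5 CPM in some group. The other 8 are given by reads or levels, and pathway genes named are among the 4 with the smallest adjusted p of their list unless stated. For several lists fewer genes are named, so other genes that this rule takes are left out of the text. Alternatives were leaving out each library, the replicate block, only the 2 groups compared, a threshold of 0.01, testing beyond 1.5-fold, no filter, at least 5 CPM in at least 2 libraries, median-ratio size factors, DESeq2 1.42.0 and counts not rounded.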

Additional observations from a re-analysis of the deposited data

How the results depend on the processing

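Leaving out 1 library at a time gave 10 to 17 higher and 10 to 12 lower of the 39 genes in CiSCs against MEFs (15 and 11 with all libraries), 7 to 14 and 6 to 15 in MSCs against MEFs (11 and 11), and 7 to 13 and 7 to 16 in CiSCs against MSCs (11 and 11). A group left with 1 library was assumed to vary like the others. At an adjusted p under 0.01, 6 were lower in MSCs than in MEFs. With only the 2 groups compared, the MSC calls against MEFs of Fgfr2 (0.0512), Spred1 (0.0504), Spred2 (0.141) and Met (0.0615) were lost. In CiSCs against MSCs that fit added 9 calls, Fgf5, Fgfr2, Spry3, Spred2, Pdgfa, Egfr, Erbb2, Ereg and Met (adjusted p from 1.73e-05 to 0.0480). Fgf9 there, and Fgfr4 in CiSCs against MEFs, did not pass its low-count filter and were not tested. Apart from these left-out libraries and that threshold, these counts stayed within 1.5 times. With the replicate block they were 14 and 11, 10 and 10, and 11 and 10 in these comparisons, without the calls of Fgfr4 in the first (0.0588), Spred2 (0.104) and Met (0.0608) in the second, and Fgfr1 (0.0636) and Erbb4 (0.0546) in the third, where Ereg was called (0.0381). The replicate differences correlated between groups across genes at -0.21, 0.14 and -0.13. With 2 libraries per group, this cannot decide whether libraries of the same number belong together. Why calls were lost with the block was not tested. Calls over all tested genes fell from 6250 to 3470 and 3395 in CiSCs against MEFs without the first or second CiSC library, and rose to 9487 without the first MEF library. They went from 6497 to 3551 and 3516 in MSCs against MEFs without the first or second MSC library, and to 9745 without the first MEF library. In CiSCs against MSCs they went from 6534 to 4037, 4205, 4017 and 3910 without each CiSC and MSC library in turn. At an adjusted p under 0.01 they were 3774, 4009 and 4324, and against a fold of 1.5 3664, 3979 and 4282.

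Of the values of single genes under the alternatives, 1475 for the 37 tested genes and 741 for 18 other pathway genes kept their direction and side of the threshold, 107 and 52 lost a call, 46 and 6 gained one, and 13 and 7 changed sign. None that changed sign had been called with all libraries. In CiSCs against MEFs, log2 values over the left-out libraries ran from -0.42 to 0.13 for Pdgfra, -0.51 to 1.33 for Mst1r, -0.50 to 0.34 for Pdgfa, -0.43 to 0.77 for Ereg, -0.0323 to 0.33 for Flrt3 and -0.12 to 2.52 for Erbb4. In MSCs against MEFs, log2 values over the left-out libraries ran from -1.06 to 0.48 for Fgf1, -0.47 to 0.52 for Spry4, -0.0273 to 0.0904 for Pdgfrl, -0.23 to 0.95 for Spry2, -0.21 to 0.33 for Pdgfra, -1.70 to 0.0825 for Fgf5 and -0.0684 to 0.27 for Etv5. In CiSCs against MSCs, log2 values over the left-out libraries ran from -0.31 to 0.28 for Fgf10. With the replicate block, Fgf10 changed sign between CiSCs and MSCs, to 0.0037. The cause was not tested. Depth limits Fgf9, Fgf16, Fgf20, Fgfr4, Erbb4 and Areg, each with 0 to 3 reads in at least 1 group.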
